A study of Mus musculus with 24 samples.

Results

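Expression was compared between the hippocampus of 5xFAD mice given MS1262 and that of 5xFAD mice given vehicle, from 4 input libraries of each group, which are 8 of the 24 libraries of the series. The members are the input columns of the gene table of estimated counts that the labels assign to these groups. In the study each of 12 mice gave 1 input library, which measures expression, and 1 library of RNA bound by an antibody against N6-methyladenosine (m6A), called IP below. The 3 groups of 4 mice were 5xFAD mice given MS1262, 5xFAD mice given vehicle and age-matched wild-type mice with no treatment. The wild-type input libraries entered the fit only through the shared estimate of spread, and the IP libraries served as a further readout of the same animals. Wild-type levels are given beside the others as levels only. The comparison asks which transcripts differ after MS1262 when both groups carry the 5xFAD transgenes. The dose, the length of treatment and the age of the mice were not given in the sources used here.

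MS1262 is, by the title of the series, a brain-penetrant inhibitor of G9a. G9a, encoded by Ehmt2, works as a complex with GLP, encoded by Ehmt1, and places methyl groups on lysine 9 of histone H3, a mark of silent genes. 5xFAD mice express human amyloid precursor protein and presenilin with familial Alzheimer's disease mutations from the neuron-specific Thy1 promoter, and so model amyloid deposition without the sporadic course of the human disease. Around the plaques, microglia switch on genes such as Cst7, Trem2, Itgax and Clec7a, and astrocytes raise Gfap. An enzyme inhibitor acts on the protein, and the level of a transcript does not measure H3K9 methylation.

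Input libraries held 24.8 to 41.8 M estimated counts in MS1262 mice, 20.7 to 41.4 M in vehicle mice and 23.3 to 43.2 M in wild-type mice (M, megacounts). Values below are in CPM, counts scaled to a common library total, unless a log2 fold change is named, and a positive log2 fold change means higher in MS1262 mice. Vehicle animal 3 stood apart from the other libraries. Its level of Ttr, the transthyretin gene that choroid plexus cells express most, was 7045 CPM, against 30.3 to 158.8 CPM in MS1262 mice and 55.4 to 69.8 CPM in the other vehicle mice. Wild-type 3 had 748 CPM of Ttr and the other wild-type mice 31.3 to 59.3 CPM. The summed level of 15 choroid plexus markers was 21650 CPM in vehicle 3, 713 to 1171 CPM in MS1262 mice, 750 to 941 CPM in the other vehicle mice and 836 to 2924 CPM in wild-type mice. The thalamic marker Tcf7l2 reached 154 CPM in vehicle 3, against 17.8 to 23.9 CPM in MS1262 mice and 20.2 to 23.5 CPM in the other vehicle mice. Vehicle 3 also had the lowest Cst7 (7.49 CPM), Trem2 (4.59 CPM), Thy1 (273 CPM) and Gfap (116 CPM) of all 5xFAD mice. Xist, the noncoding RNA of the inactive X chromosome, was at 1.29 CPM in vehicle 3 and at 21.5 to 48.3 CPM in the other 11 input libraries. The counts of 4 Y-linked genes were at most 4 in any of the 24 libraries. The sex of the mice is not given in the sources used here, and whether vehicle 3 is the animal that its label names was not tested. List medians are therefore given with and without vehicle 3, and so are the genes that it moved.

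No gene passed the test between MS1262 and vehicle mice among the 17693 tested with all libraries. edgeR called 0 genes (0%) at an adjusted p below 0.05, and the smallest adjusted p was 0.848. At an unadjusted p below 0.05 there were 1003 genes (5.67%), 385 higher (2.18%) and 618 lower (3.49%) in MS1262 mice. The values of the 4 MS1262 mice all lay above those of the 4 vehicle mice for 274 genes (1.55%) and all below them for 327 genes (1.85%). Counts of list members given below are to be read beside these shares. Without vehicle 3, 1 of 18208 genes was called (0.00549%), the pseudogene Rps7-ps3. Then 780 genes (4.28%) had an unadjusted p below 0.05, 360 higher (1.98%) and 420 lower (2.31%), and 459 genes (2.52%) did not overlap upward and 557 (3.06%) downward. Of the 1003 genes found with all libraries, 537 (53.5%) were still below that p without vehicle 3.

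**Figure D1:**
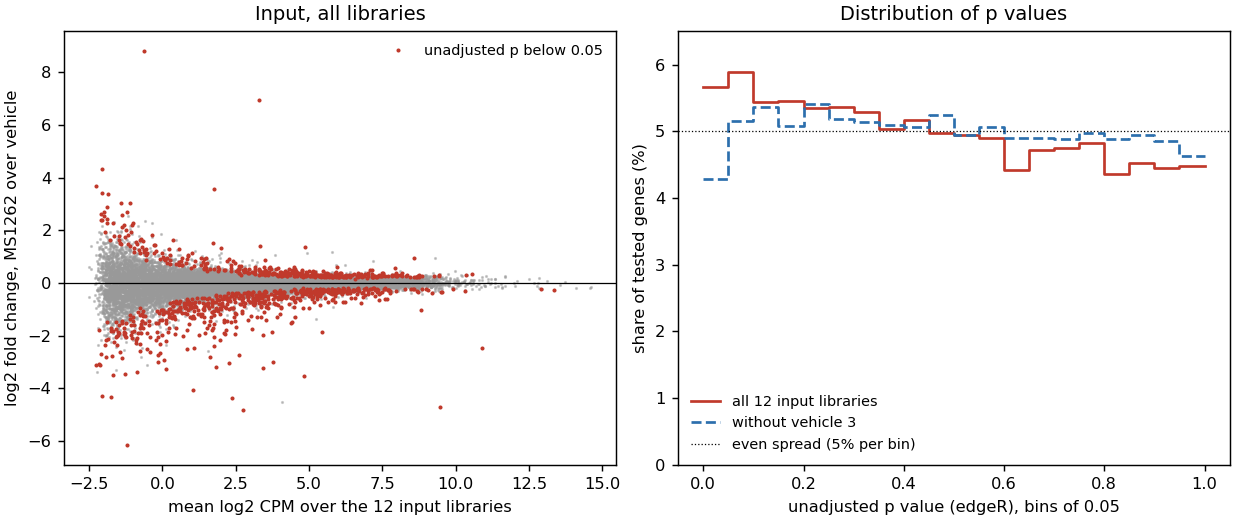
Left, log2 fold change of MS1262 over vehicle (vertical axis) against mean log2 CPM over the 12 input libraries (horizontal axis) for each of 17693 genes, red where the unadjusted edgeR p is below 0.05. Right, share of tested genes (%) in bins of unadjusted p, with all libraries (solid) and without vehicle 3 (dashed), where the first bin holds 5.67% with all libraries and 4.28% without vehicle 3, beside the 5% that an even spread would give (dotted).

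The plot of all genes shows how narrow most fold changes were. Among 12520 genes with a mean log2 CPM of at least 1, the median standard error of the log2 fold change was 0.158. For 11442 of them (91.4%) the 95% interval lay wholly within a 2-fold difference either way, and for 8088 (64.6%) within 1.5-fold. Without vehicle 3 these shares were 90.4% and 60.9%. The widest fold changes belonged to genes of low level and to the choroid plexus genes of vehicle 3.

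The genes of the drug's target overlapped between the groups. Ehmt2, which encodes G9a (GRCm38 chromosome 17, 34898463 to 34914073), had 9.66, 8.22, 11.8 and 11.6 CPM in MS1262 mice, against 7.36, 11.4, 9.22 and 11.3 CPM in vehicle mice. The groups overlapped, the log2 fold change was 0.07 (95% interval −0.30 to 0.45, edgeR adjusted p = 0.961), and wild-type mice had 7.42 to 9.74 CPM. Ehmt1, which encodes GLP (chromosome 2, 24790769 to 24919643), had 20.9, 14.5, 22.3 and 19.1 CPM in MS1262 mice and 14.6, 17.4, 16.7 and 14.5 CPM in vehicle mice. In 3 of 4 MS1262 mice it was above all vehicle mice, with a log2 fold change of 0.29 (95% interval −0.027 to 0.60, edgeR adjusted p = 0.863). A difference of 2-fold in either gene lies outside these intervals.

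Enzymes and readers of H3K9 methylation, a list of 26 genes that includes Ehmt2 and Ehmt1, had a median log2 fold change of 0.084 (0.11 without vehicle 3), beside −0.0087 for all genes tested. Of the 26, 19 were higher and 7 lower, none was called, and 1 had an unadjusted p below 0.05. That gene was Setdb2, an H3K9 methyltransferase gene, with a mean of 3.49 CPM in MS1262 mice and 4.96 CPM in vehicle mice (log2 −0.50). The demethylase gene Kdm3b averaged 18.4 CPM in MS1262 mice and 15.5 CPM in vehicle mice (log2 0.25), and Atf7ip, a SETDB1 cofactor gene, 68.8 CPM in MS1262 mice and 60.6 CPM in vehicle mice (log2 0.18). With all libraries Wiz, which encodes a zinc finger partner of G9a and GLP, was the only member whose groups did not overlap upward. It had 2.38 CPM in MS1262 mice and 1.79 CPM in vehicle mice on average (log2 0.41). Of all genes 1.55% did not overlap upward. Without vehicle 3 Kdm3b (log2 0.35) did not overlap upward and Setdb2 (−0.56) downward. Both then had an unadjusted p below 0.05, and neither was called. In that fit 2.52% of all genes did not overlap upward and 3.06% downward, and 4.28% had such a p. Germline genes, which G9a is known to silence in other tissues, were mostly below the count filter. Of 15 listed, 7 were tested, none had an unadjusted p below 0.05, the median was 0.14 (0.16 without vehicle 3), and their summed level was 14.7 to 21.7 CPM in MS1262 mice and 12.9 to 17.9 CPM in vehicle mice.

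The transgene's promoter gene and the amyloid precursor gene overlapped too. Thy1 had 396, 578, 528 and 632 CPM in MS1262 mice, against 482, 746, 273 and 384 CPM in vehicle mice. The vehicle mice spread more widely and enclosed the MS1262 mice, and wild-type mice had only 88.7 to 106.9 CPM. Its log2 fold change was 0.18 (95% interval −0.31 to 0.67), and −0.0049 without vehicle 3. App, the mouse amyloid precursor gene, was called in neither fit and had 657, 576, 649 and 639 CPM in MS1262 mice and 593, 592, 566 and 482 CPM in vehicle mice. Here 3 of 4 MS1262 mice exceeded every vehicle mouse, and the log2 fold change was 0.17 (95% interval −0.035 to 0.38, edgeR adjusted p = 0.863). Whether reads of the human transgene were counted there is not given in the sources used here.

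Among 21 genes of amyloid production and clearance none was called and none had an unadjusted p below 0.05, with 13 higher, 8 lower and a median of 0.063 (0.058 without vehicle 3). Psen2, a presenilin gene, averaged 5.18 CPM in MS1262 mice and 3.94 CPM in vehicle mice (log2 0.39). Ncstn, another gamma-secretase subunit gene, averaged 53.8 CPM in MS1262 mice and 62.2 CPM in vehicle mice (log2 −0.21). The beta-secretase gene Bace1 (log2 0.05) and the alpha-secretase gene Adam10 (0.06) lay near 0. Clu, the apolipoprotein J gene, averaged 1002 CPM in MS1262 mice, 1120.3 CPM in vehicle mice and 775 CPM in wild-type mice (log2 −0.16).

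**Figure D2:**
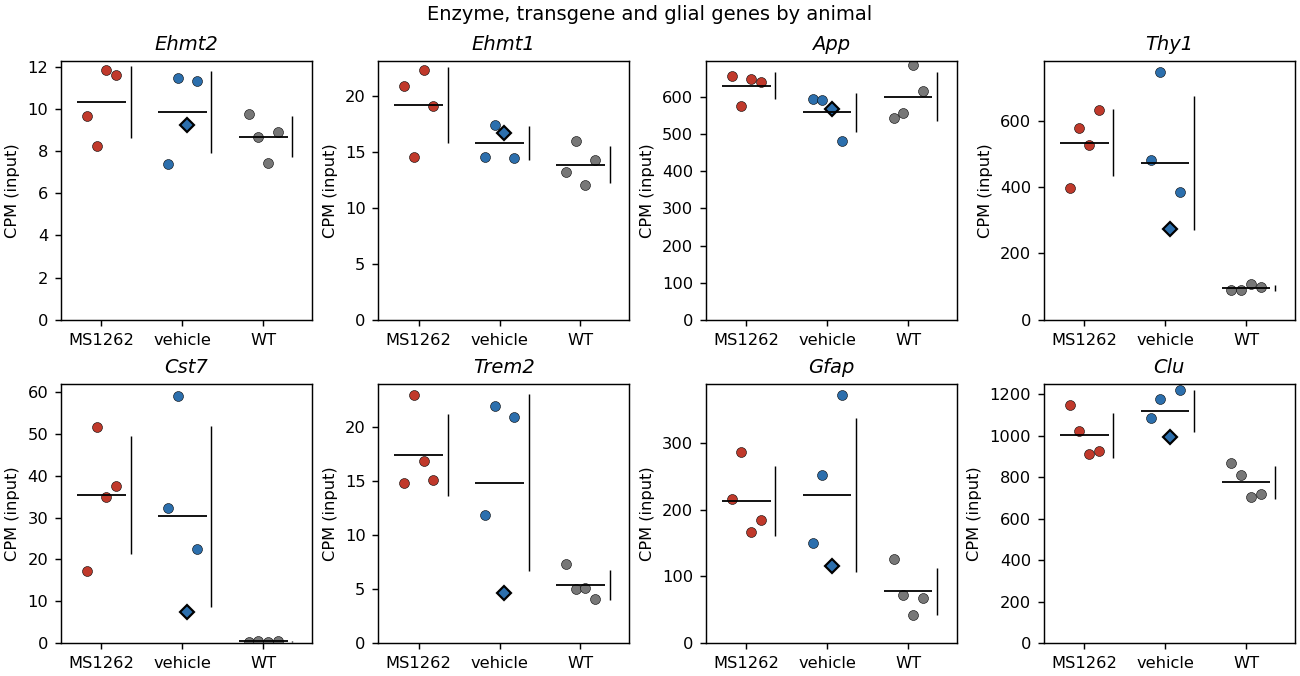
CPM in the input library of each animal (vertical axes, from 0) for 8 genes in MS1262, vehicle and wild-type (WT) mice, 4 per group, with the mean as a horizontal line, the SD as the vertical bar to its right and vehicle 3 as a diamond. MS1262 and vehicle mice overlap in all 8 panels, while Cst7 is 17.2 to 51.6 CPM in MS1262 mice, 7.49 to 59.0 CPM in vehicle mice and at most 0.484 CPM in wild-type mice.

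Genes of plaque-associated microglia overlapped between the groups. Cst7, the cystatin F gene, had 17.2, 51.6, 34.9 and 37.5 CPM in MS1262 mice, against 32.3, 59.0, 7.49 and 22.5 CPM in vehicle mice. The vehicle mice enclosed the whole range of the MS1262 mice. Its log2 fold change was 0.22 (95% interval −0.72 to 1.16), and −0.095 without vehicle 3. Trem2, the lipid-sensing receptor gene, had 14.8, 22.9, 16.9 and 15.1 CPM in MS1262 mice and 11.9, 21.9, 4.59 and 20.9 CPM in vehicle mice. The MS1262 mice stood within the spread of the vehicle mice apart from MS1262 2, just above the highest of them. The log2 fold change was 0.23 (95% interval −0.52 to 0.99), and −0.06 without vehicle 3. The interval of Cst7 includes a 1.5-fold difference in either direction and that of Trem2 a 1.5-fold higher level. With 4 mice per group these differences are therefore not excluded.

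The disease-associated microglia signature had 31 tested genes, 15 higher and 16 lower, with a median of −0.0089 (−0.18 without vehicle 3, 6 higher and 25 lower). Their summed level was 3603 to 4411 CPM in MS1262 mice, 3286 to 4868 CPM in vehicle mice (4056 to 4868 CPM without vehicle 3) and 2456 to 2952 CPM in wild-type mice. Cd63, a lysosomal tetraspanin gene, was the only one with an unadjusted p below 0.05, at 138, 183, 146 and 152 CPM in MS1262 mice and 162, 199, 200.1 and 185 CPM in vehicle mice (log2 −0.27, edgeR adjusted p = 0.848, and log2 −0.23 without vehicle 3, where its unadjusted p was 0.060). Spp1, the osteopontin gene, averaged 43.5 CPM in MS1262 mice and 66.1 CPM in vehicle mice (log2 −0.61). Itgax, the CD11c gene, averaged 5.76 CPM in MS1262 mice, 4.32 CPM in vehicle mice and 0.067 CPM in wild-type mice (log2 0.41 for MS1262 over vehicle, 0.093 without vehicle 3). In bulk tissue fewer cells of a type and less RNA per cell cannot be told apart, here and in every list that follows.

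Markers of resting microglia gave a like picture, with 3 of 16 higher and 13 lower, none below an unadjusted p of 0.05 and a median of −0.091. Without vehicle 3 all 16 were lower (median −0.21) and 3 had an unadjusted p below 0.05: Siglech (log2 −0.36), Aif1 (−0.38) and Itgam (−0.50). P2ry12, the purinergic receptor gene of microglial processes, had 179, 198, 226 and 195 CPM in MS1262 mice and 200.5, 269, 172 and 217 CPM in vehicle mice. With all libraries vehicle 3 was the lowest of the 8 in P2ry12, and without it the remaining 3 vehicle mice exceeded all MS1262 mice but MS1262 3. The summed level of the list was 688 to 866 CPM in MS1262 mice, 521 to 1024 CPM in vehicle mice (828 to 1024 CPM without vehicle 3) and 474 to 516 CPM in wild-type mice. On the scale of log2(TPM + 1) the medians of both microglial lists were above 0, at 0.12 for the plaque signature and 0.04 for the resting markers, where all genes had a median of 0.065.

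Lists that follow glial activation leaned lower, each by little. Of 19 complement and antigen presentation genes 12 were lower and 2 had an unadjusted p below 0.05 (median −0.071, −0.26 without vehicle 3). Serping1, the C1 inhibitor gene, had 13.1, 14.9, 8.66 and 10.9 CPM in MS1262 mice, against 20.2, 14.9, 25.6 and 19.9 CPM in vehicle mice, a log2 fold change of −0.77 (edgeR adjusted p = 0.848) and of −0.63 without vehicle 3. MS1262 2 and vehicle 2 all but met, and the other 6 mice were well apart. C1qa and C1qb, of the first complement component, and Cd74, the invariant chain gene of antigen presentation, had log2 fold changes between −0.09 and 0.03.

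Of 19 interferon response genes 14 were lower, 2 with an unadjusted p below 0.05 (median −0.11, −0.21 without vehicle 3). Ifit3 averaged 35.7 CPM in MS1262 mice and 47.2 CPM in vehicle mice (log2 −0.40), and Ifit2 23.7 CPM in MS1262 mice and 28.9 CPM in vehicle mice (log2 −0.29). Without vehicle 3 these values were −0.54 for Ifit3 and −0.21 for Ifit2, which then had an unadjusted p of 0.095. Of 23 lysosomal genes 18 were lower (median −0.12, −0.17 without vehicle 3). Of 17 reactive astrocyte genes 12 were lower, with 1 below an unadjusted p of 0.05 and a median of −0.16 (−0.22 without vehicle 3). Gfap, the intermediate filament gene of astrocytes, had 216, 287, 167 and 184 CPM in MS1262 mice and 149.6, 253, 116 and 372 CPM in vehicle mice. Both its lowest and its highest values were in vehicle mice, and the log2 fold change of −0.06 (95% interval −0.79 to 0.67) changed sign with the scale and with the mouse left out. The lysosomal and complement medians were above 0 on the log2(TPM + 1) scale, at 0.0042 and 0.054, though below the median of all genes on that scale.

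The 20 protein-coding genes with the smallest p values among those with a mean log2 CPM of at least 1, 10 in each direction, were named although none passed the adjusted threshold. Those higher in MS1262 mice had log2 fold changes of 0.37 to 1.41 with unadjusted p values of 0.000637 to 0.00331, and 7 of the 10 did not overlap between the groups. Those lower had log2 fold changes of −1.45 to −0.40 with unadjusted p values of 0.00017 to 0.00151, and 8 of the 10 did not overlap. All 20 kept their sign without vehicle 3, with log2 fold changes of 0.34 to 1.38 and of −1.40 to −0.32, each with an unadjusted p below 0.05, and each had an adjusted p of 0.848 in edgeR with all libraries. Since these genes were picked by p over the same samples, their values are a description, and genes outside the 20 had larger fold changes.

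Cxcl5, which encodes a chemokine that attracts neutrophils (chromosome 5, 90759298 to 90761625), had 8.59, 10.7, 5.22 and 5.08 CPM in MS1262 mice, against 2.72, 3.19, 2.67 and 3.21 CPM in vehicle mice. All 4 MS1262 mice were above all vehicle mice, with MS1262 1 and 2 the highest, and wild-type mice had 0.922 to 2.78 CPM. The log2 fold change was 1.32 (SE 0.33) and 1.29 without vehicle 3. Plcg2, the phospholipase gene that signals below immune receptors and is expressed in microglia, had 3.54, 2.75, 4.29 and 3.15 CPM in MS1262 mice and 1.497, 2.48, 1.69 and 1.56 CPM in vehicle mice. The nearest pair was MS1262 2 and vehicle 2, and the log2 fold change was 0.94 (SE 0.24). Tmem63b, an osmosensitive cation channel gene, was at 4.32, 3.16, 2.74 and 3.38 CPM in MS1262 mice and 2.15, 1.78, 1.26 and 1.86 CPM in vehicle mice (log2 0.94, SE 0.23).

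Several of the higher genes were neuronal or general cell machinery. Klhl42, an adaptor gene of a cullin ubiquitin ligase, had 29.5, 22.9, 23.4 and 27.3 CPM in MS1262 mice and 17.3, 15.2, 15.1 and 20.3 CPM in vehicle mice (log2 0.60, SE 0.14). Its groups did not overlap, and wild-type mice had 20.9 to 28.6 CPM. Pcdha6, of the protocadherin alpha cluster of neuronal adhesion genes, had 17.7, 20.1, 7.91 and 7.43 CPM in MS1262 mice and 7.49, 3.61, 4.71 and 4.09 CPM in vehicle mice. Only MS1262 1 and 2 stood clearly above the vehicle mice (log2 1.41). DESeq2 called it with all libraries and edgeR did not, and transcripts of the cluster share exons, so that the split of reads among its genes is uncertain. The remaining higher genes had log2 fold changes of 0.37 to 0.61: Polr3e of RNA polymerase III, Nav2 of neurite outgrowth, the ribosome assembly gene Tma16, the postsynaptic anchoring gene Akap5 and Tmem263.

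**Figure D3:**
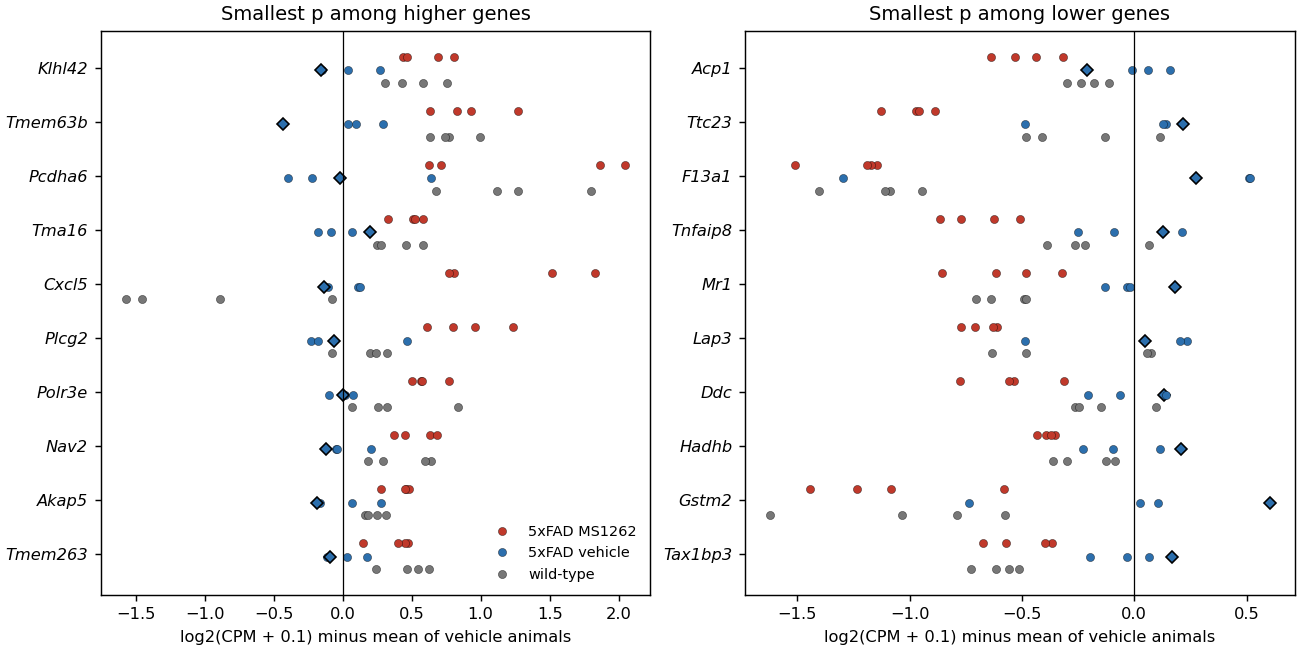
Level of the 10 higher (left) and 10 lower (right) genes of smallest p in each animal's input library, as log2(CPM + 0.1) minus the mean of the 4 vehicle mice (horizontal axes), with MS1262 mice above vehicle mice and wild-type mice in each row and vehicle 3 as a diamond. MS1262 and vehicle mice do not overlap in 7 of the higher and 8 of the lower genes.

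Acp1, a low-molecular-weight tyrosine phosphatase gene (chromosome 12, 30893326 to 30911619), had the smallest p of the comparison. It stood at 120.4, 112, 128 and 139.6 CPM in MS1262 mice, against 194, 181, 150.3 and 173 CPM in vehicle mice. No MS1262 mouse reached the lowest vehicle mouse, which was vehicle 3, and the log2 fold change was −0.48 (SE 0.10, edgeR adjusted p = 0.848). It was −0.54 without vehicle 3, where DESeq2 called it and edgeR did not (adjusted p = 0.598). F13a1, the coagulation factor XIII subunit gene that macrophages at the borders of the brain express, had 2.33, 3.04, 2.98 and 2.94 CPM in MS1262 mice and 9.78, 2.72, 8.28 and 9.81 CPM in vehicle mice. Vehicle 2 was among the MS1262 mice and the other 3 vehicle mice were far above them. Its log2 fold change was −1.45 (SE 0.31), DESeq2 called it with all libraries, and edgeR called it only when vehicle 2 was left out (adjusted p = 0.0075; over all alternatives the adjusted p ranged from 0.0075 to 0.99).

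Lap3, a leucine aminopeptidase gene, had 38.8, 36.2, 34.6 and 38.2 CPM in MS1262 mice, against 69.8, 68.2, 61.2 and 42.2 CPM in vehicle mice. The MS1262 mice were tightly grouped below all vehicle mice, and wild-type mice spread over 38.1 to 62.3 CPM (log2 −0.71, SE 0.18). Mr1, which encodes an antigen-presenting molecule for vitamin B metabolites, had 17.2, 14.5, 18.9 and 21.1 CPM in MS1262 mice and 25.8, 26.1, 29.9 and 24.1 CPM in vehicle mice (log2 −0.56). Ttc23 was at 2.28, 2.43, 2.31 and 2.04 CPM in MS1262 mice and 5.07, 5.02, 5.34 and 3.24 CPM in vehicle mice (log2 −1.04). Others of the lower genes were Gstm2, a glutathione transferase gene (log2 −1.15), Tnfaip8, a gene of apoptosis control (−0.70), Ddc, the dopa decarboxylase gene (−0.55), Tax1bp3 (−0.51) and Hadhb of mitochondrial fatty acid oxidation (−0.40). Of these 5, only Gstm2 overlapped between MS1262 and vehicle mice.

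Endothelial markers were lower in MS1262 mice, without a call. All 12 endothelial markers had negative log2 fold changes (median −0.52), 6 of them with an unadjusted p below 0.05 where 3.49% of all genes were that low. Their summed level was 229, 234.5, 210.4 and 207 CPM in MS1262 mice, against 312, 293, 401 and 309 CPM in vehicle mice, and 253 to 485 CPM in wild-type mice. The MS1262 mice were all below the vehicle mice. Leaving out vehicle 3, whose sum was the highest of the group, could not change that, so it is no check of it. Of 37 lists 2 had sums that did not overlap between the groups with all libraries, this one and that of the m6A enzymes, and without vehicle 3 the ribosomal protein genes were added (7695 to 8640 CPM in MS1262 mice, 8952 to 10086 CPM in vehicle mice). Itm2a, a membrane protein gene of endothelial and some T cells, makes up 63.1% of the sum, and the sum of the other 11 markers, 79.6 to 99.5 CPM in MS1262 mice and 100.9 to 165 CPM in vehicle mice, did not overlap either.

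Itm2a had 129, 152, 130.6 and 128 CPM in MS1262 mice and 211, 179.6, 236 and 190.4 CPM in vehicle mice (log2 −0.60, SE 0.16, edgeR adjusted p = 0.848). Pltp, the phospholipid transfer protein gene, had 8.77, 11.7, 10.5 and 7.36 CPM in MS1262 mice and 13.7, 15.7, 23.2 and 12.4 CPM in vehicle mice (log2 −0.76). Ly6c1 (log2 −0.63) also did not overlap, while the transporter genes Slco1a4 (−0.53) and Abcb1a (−0.66) of the blood-brain barrier did. Of the defining endothelial genes, the adhesion gene Pecam1 averaged 5.54 CPM in MS1262 mice and 7.04 CPM in vehicle mice (log2 −0.35), with overlap. Cldn5, the tight junction gene, averaged 0.436 CPM in MS1262 mice and 0.493 CPM in vehicle mice, also with overlap. Without vehicle 3 the list's median was −0.32, 11 of 12 markers were lower and 2 had an unadjusted p below 0.05. The median was between −0.61 and −0.26 under the alternatives run, none of which called a member. Markers of mural cells, the pericytes and smooth muscle of vessels, were not lower throughout, with 7 of 10 lower and 3 higher (median −0.43, −0.27 without vehicle 3). Their summed level averaged 302 ± 48 CPM in MS1262 mice and 301 ± 44 CPM in vehicle mice (SD, n = 4 each), of which Rgs5 made up 86.7%. Without Rgs5 the mural sum was 22.5 to 38.1 CPM in MS1262 mice and 39.7 to 55.4 CPM in vehicle mice, which did not overlap. Wild-type mice had 25.4 to 50.6 CPM of that reduced sum. Vtn, the vitronectin gene of pericytes, was the only one with an unadjusted p below 0.05 (log2 −0.91, −0.82 without vehicle 3).

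Markers of the brain's coverings were lower too. Of 14 meningeal and fibroblast markers 13 were lower, 7 with an unadjusted p below 0.05 where 3.49% of all genes were that low. The median of the markers was −0.92, and −0.78 without vehicle 3. Their summed level was 592, 570.0, 321 and 489 CPM in MS1262 mice and 937, 371, 1116 and 1111 CPM in vehicle mice. Vehicle 2 lay within the range of the MS1262 mice and the other 3 vehicle mice well above it. Ptgds, the prostaglandin D synthase gene of the arachnoid and of oligodendrocytes, took 70.7% of that sum and averaged 331 CPM in MS1262 mice, 668 CPM in vehicle mice and 347 CPM in wild-type mice (log2 −1.01). Col1a1, a collagen gene, averaged 0.813 CPM in MS1262 mice and 2.00 CPM in vehicle mice without overlap (log2 −1.30), and Fmod, another matrix gene, 1.89 CPM in MS1262 mice and 5.55 CPM in vehicle mice (log2 −1.56). Of the 14 markers none was at 0 in all mice of either group.

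Haemoglobin genes were lower in MS1262 mice as well. Hbb-bs, a beta globin gene, had 10.5, 11.1, 9.63 and 21.7 CPM in MS1262 mice and 37.9, 24.6, 23.2 and 42.4 CPM in vehicle mice (log2 −1.28, SE 0.38, edgeR adjusted p = 0.848). All MS1262 mice were below all vehicle mice, with MS1262 4 the nearest, and wild-type mice had 12.99 to 44.3 CPM. The alpha globin genes Hba-a1 (log2 −1.19) and Hba-a2 (−0.91) overlapped between the groups. The globin copies are near-identical, and how reads were divided between them is uncertain. Blood in the vessels and the amount of meninges, vessel or choroid plexus in a dissection were not measured, and their part in the endothelial, F13a1 and globin values was not tested. Of the 12 markers of T cells, B cells and neutrophils only 3 passed the count filter.

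Choroid plexus markers show what a single animal did. All 13 tested markers were lower in MS1262 mice with an unadjusted p below 0.05, with a median of −2.80, and none was called. Without vehicle 3 the median was −0.083, 6 were higher, 7 lower and none had an unadjusted p below 0.05. Ttr had a log2 fold change of −4.71 with vehicle 3 and 0.14 without it. Enpp2, the autotaxin gene, had 646, 639, 931 and 619 CPM in MS1262 mice and 807, 639, 13590 and 816 CPM in vehicle mice. The thalamus and striatum list had a median of −0.48, and of −0.075 without vehicle 3, and ependymal markers one of −0.27, and of −0.11 without vehicle 3.

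**Figure D4:**
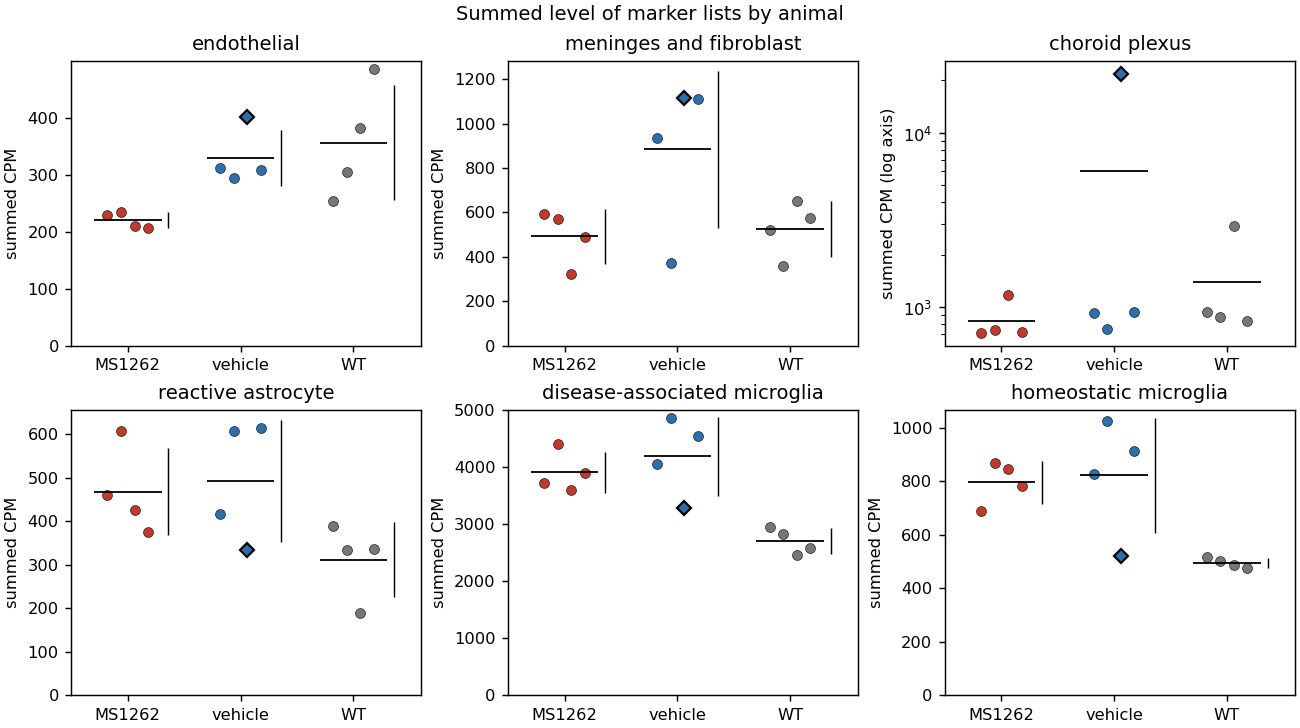
Summed CPM of 6 marker lists in each animal's input library (vertical axes, from 0 except for the choroid plexus, which has a log axis), for MS1262, vehicle and wild-type (WT) mice, with the mean as a horizontal line, the SD as the vertical bar (not drawn on the log axis) and vehicle 3 as a diamond. The endothelial sums of MS1262 mice (207 to 234.5 CPM) lie below those of vehicle mice (293 to 401 CPM), the choroid plexus sum of vehicle 3 is 21650 CPM, and the other panels overlap.

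Excitatory neuron and hippocampal markers leaned the other way, with small differences. The tissue carried hippocampal markers in every mouse, with summed levels of 746 to 759 CPM for 12 genes of CA1 to CA3 in MS1262 mice and 660 to 759 CPM in vehicle mice. Their median log2 fold change was 0.17 (0.16 without vehicle 3), with 10 of 12 higher. The only one of them with an unadjusted p below 0.05, Pcp4, was lower (log2 −0.55, and −0.25 without vehicle 3). Without vehicle 3 Pcp4 no longer had such a p, and Map3k15, which was higher, was the only one that did (log2 1.06). The median of 10 dentate gyrus genes was 0.17 (0.24 without vehicle 3), with 9 higher and none with such a p in either fit. Of 12 excitatory neuron genes 10 were higher, 3 with an unadjusted p below 0.05 where 2.18% of all genes were that high, and the median was 0.22 (0.20 without vehicle 3, where 1 had such a p). Neurod2, a transcription factor gene of forebrain excitatory neurons, had 24.9, 27.5, 27.8 and 19.1 CPM in MS1262 mice and 17.9, 21.4, 16.1 and 14.0 CPM in vehicle mice. Only MS1262 4 was within the range of the vehicle mice, and the log2 fold change was 0.52 (SE 0.18, edgeR adjusted p = 0.848). Nptx1, the neuronal pentraxin gene (log2 0.38), and Cck, the cholecystokinin gene (0.26), overlapped.

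Synaptic lists had medians slightly above 0. Glutamate receptor and postsynaptic genes had a median of 0.14 (17 of 23 higher, 0 below an unadjusted p of 0.05), presynaptic genes 0.11 (17 of 22 higher, 1) and voltage-gated channel genes 0.081 (21 of 27 higher, 2). Without vehicle 3 these medians were 0.071, 0.047 and 0.11. Immediate early genes, which neuronal activity induces, had a median of 0.12 (0.065 without vehicle 3) with 13 of 22 higher and 1 below an unadjusted p of 0.05. Inhibitory neuron genes had a median of −0.094 (−0.11 without vehicle 3) with 10 of 16 lower and 2 below that p, both neuropeptide genes whose groups did not overlap. Of all genes 3.49% were lower with such a p and 1.85% lower without overlap. Tac1, which encodes substance P, averaged 9.43 ± 1.43 CPM in MS1262 mice and 16.3 ± 4.04 CPM in vehicle mice (SD, n = 4 each, log2 −0.78), and Npy, the neuropeptide Y gene, 54.1 ± 2.30 CPM in MS1262 mice and 68.1 ± 4.43 CPM in vehicle mice (log2 −0.33). Oligodendrocyte genes had a median of −0.032 with 5 of 15 higher, which changed sign to 0.097 without vehicle 3 with 10 of 15 higher, 2 of them (Cldn11 and Mal) with an unadjusted p below 0.05. The median of their precursors was 0.031 and, without vehicle 3, −0.0063. None of these lists held a called gene with or without vehicle 3.

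The m6A enzymes and readers had a median of 0.11 (0.10 without vehicle 3) with 15 of 21 higher. Those with an unadjusted p below 0.05 were the writer complex gene Zc3h13 (log2 0.23), the reader gene Ythdf2 (0.35) and the ribosomal RNA methyltransferase gene Mettl5 (−0.45). Without vehicle 3 their unadjusted p values were 0.069 to 0.070, and the reader gene Ythdc1 alone was below 0.05 (log2 0.30, against 0.24 with all libraries). Their summed level was 1290 to 1366 CPM in MS1262 mice and 1227 to 1269 CPM in vehicle mice, apart but by little. Hnrnpa2b1 made up 28.4% of that sum, with 368 CPM in MS1262 mice and 366 CPM in vehicle mice on average. The catalytic writer gene Mettl3 had 13.7, 19.5, 22.2 and 21.6 CPM in MS1262 mice and 22.2, 21.1, 19.4 and 19.4 CPM in vehicle mice (log2 −0.09). Mettl14, its partner, had a log2 fold change of 0.12, and the demethylase genes Fto −0.13 and Alkbh5 0.27, with overlap of the groups in each.

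Transcripts of the respiratory chain and the ribosome were lower together by small amounts. All 15 mitochondrially encoded genes were lower (median −0.18, −0.21 without vehicle 3), 4 with an unadjusted p below 0.05 where 3.49% of all genes were that low. With 1 mouse left out at a time, that median ranged from −0.24 to −0.072. Mitochondrial genes took 12.3 to 12.9% of counts in MS1262 mice and 12.6 to 16.7% in vehicle mice, and 9.99 to 11.8% in wild-type mice. The 16.7% was that of vehicle 4, and the other vehicle mice had 12.6 to 13.9%. mt-Co3, a cytochrome oxidase subunit gene, had 10358, 10941, 10061 and 10781 CPM in MS1262 mice and 12366, 11368, 11315 and 15337 CPM in vehicle mice, without overlap (log2 −0.26). Vehicle 4 was the highest for it. Of 55 cytosolic ribosomal protein genes 50 were lower (median −0.11, −0.14 without vehicle 3), 6 with an unadjusted p below 0.05 and 5 without overlap. Of all genes 3.49% were lower with such a p and 1.85% lower without overlap. Rpl3 averaged 623 CPM in MS1262 mice and 783 CPM in vehicle mice (log2 −0.33). Of 30 nuclear genes of oxidative phosphorylation 25 were lower, with a median of −0.12 (−0.087 without vehicle 3). Of these 30, 3 were lower with an unadjusted p below 0.05 with all libraries and 0 without vehicle 3. On the log2(TPM + 1) scale the ribosomal median was 0.0048 and that of the nuclear respiratory genes 0.0014, while the mitochondrially encoded one stayed below 0 at −0.066. Each of these medians lay below that of all genes on the same scale.

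**Figure D5:**
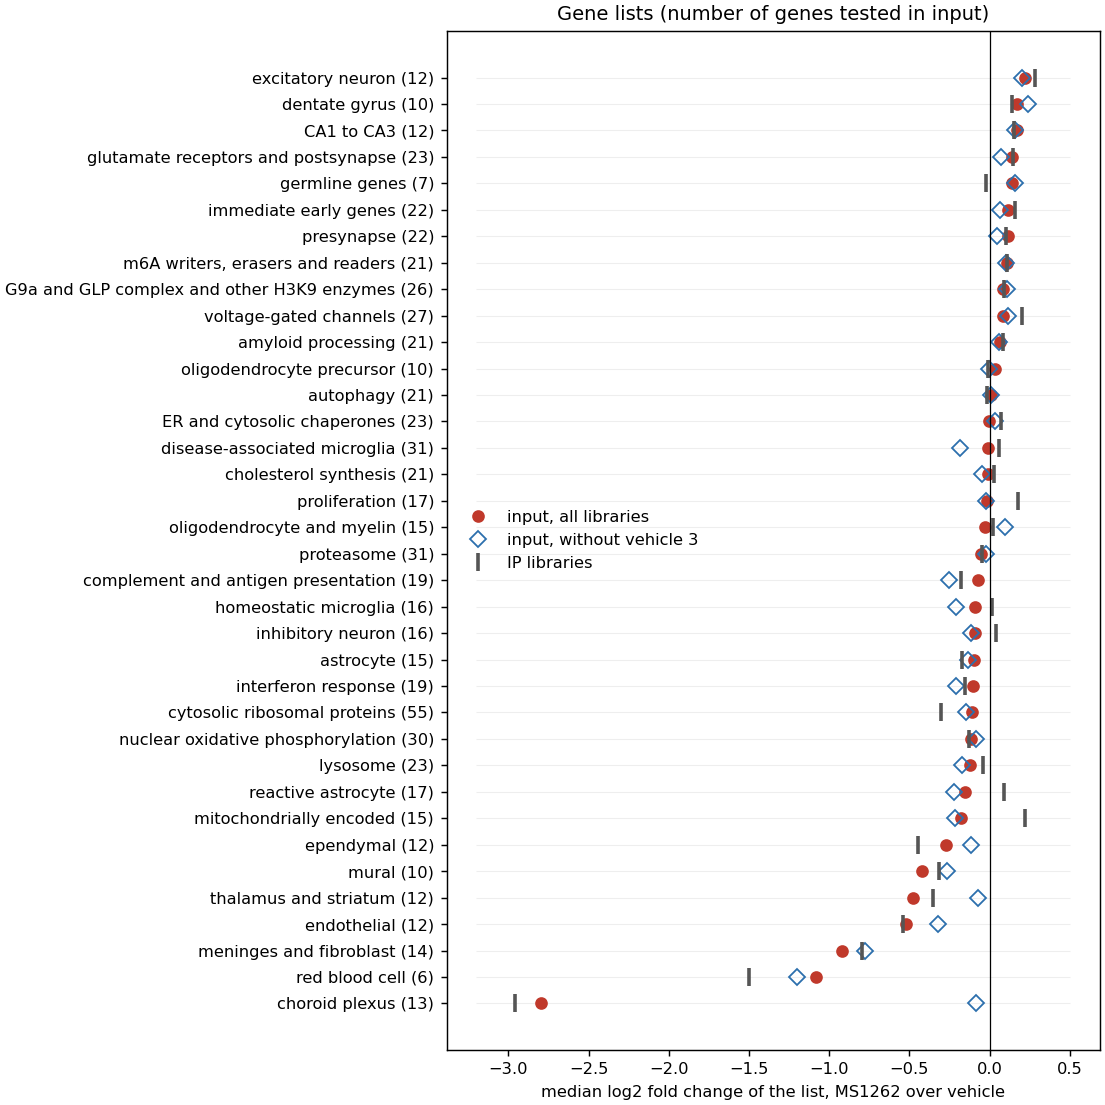
Median log2 fold change of MS1262 over vehicle (horizontal axis) for each gene list with at least 5 tested genes (rows, number of tested genes in brackets), with all input libraries (filled circles), without vehicle 3 (open diamonds) and in the IP libraries (vertical bars). The choroid plexus list is at −2.80 with vehicle 3 and −0.083 without it, while the endothelial list is at −0.52 with it, −0.32 without it and −0.54 in the IP libraries, and the IP medians of the mitochondrial (0.22) and ribosomal (−0.30) lists rest on vehicle 4.

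Leaving out vehicle 3 gave 1 call in edgeR, Rps7-ps3, a pseudogene of the ribosomal protein gene Rps7 (chromosome X, 152909503 to 152910194). It had 31.2, 48.4, 39.6 and 31.2 CPM in MS1262 mice, against 8.34, 8.53, 28.9 and 12.02 CPM in vehicle mice, and 31.7 to 45.6 CPM in wild-type mice. Vehicle 3, at 28.9 CPM, stood near the MS1262 mice, and the other 3 vehicle mice were far below. The log2 fold change was 1.97 without vehicle 3 (SE 0.21, edgeR adjusted p = 0.00348) and 1.38 with it (SE 0.33, adjusted p = 0.848). The call ended without vehicle 1. Rps7 had 195.8, 159, 217 and 190.5 CPM in MS1262 mice and 220.7, 230.3, 199 and 265 CPM in vehicle mice (log2 −0.26). Reads of a near-identical copy can be divided between gene and pseudogene, so that the value of Rps7-ps3 is uncertain.

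Of the 12 protein-coding genes with the smallest p at that level without vehicle 3, 6 in each direction, 10 were among the 20 named above. The remaining ones were Gng13, a G protein gamma subunit gene, and Fam177a. Gng13 had 2.97, 2.35, 3.03 and 3.30 CPM in MS1262 mice and 4.57, 4.22, 3.89 and 8.68 CPM in vehicle mice (log2 −0.99 without vehicle 3). Fam177a had 5.30, 0, 16.0 and 3.64 CPM in MS1262 mice and 0, 0, 11.5 and 0 CPM in vehicle mice, so that no fold change is given. One MS1262 mouse was at 0 like 3 of the vehicle mice.

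The IP libraries of the same animals gave a further reading, which mixes the level of a transcript with its m6A and is not independent of the input, since both came from the same RNA. In the 12 IP libraries edgeR called 0 of 16941 genes between MS1262 and vehicle mice (0%), and 599 (3.54%) had an unadjusted p below 0.05, 186 higher (1.10%) and 413 lower (2.44%). Of 16668 genes tested in both kinds of library, 949 had an unadjusted p below 0.05 in the input and 578 in the IP. Of the 190 genes below it in both, 188 had the same sign, which were 19.8% of the first set and 32.5% of the second. Of the 20 genes of smallest p in the input, 19 had the same sign in the IP and 8 of those an unadjusted p below 0.05. Tmem63b was the exception, with a log2 fold change of −0.35 in the IP. The 20 were picked by their input values, and the share of all genes with the same sign in both was not counted. The IP library of vehicle 4 was the shallowest, with 3.98 M counts, and it moved these values. Without it edgeR again called 0 genes (0%) of 17476, and 1306 (7.47%) had an unadjusted p below 0.05, 595 higher (3.40%) and 711 lower (4.07%). Then 19 of the 20 genes again had the same sign as in the input, 10 of them with such a p. The genes below it in both with the same sign were 239, or 24.7% of the input set and 18.7% of the IP set. Vehicle 3 was kept in all these counts, and its IP library carried choroid plexus transcripts as its input did. Ttr was at 5816 CPM in the IP of vehicle 3, against 34.4 to 131 CPM in the IP of the other vehicle mice. All 14 choroid plexus markers tested in the IP were lower (median −2.96). The genes shared by input and IP were not counted without vehicle 3.

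Cxcl5 had 7.78, 15.2, 6.18 and 7.53 CPM in the IP libraries of MS1262 mice, against 3.62, 5.195, 2.37 and 1.86 CPM in those of vehicle mice. The groups did not overlap there either (log2 1.44, edgeR adjusted p = 0.995). Lap3 had 51.4, 47.2, 51.2 and 50.5 CPM in the IP of MS1262 mice and 102.8, 98.3, 89.6 and 50.7 CPM in the IP of vehicle mice, where vehicle 4 was close to the MS1262 mice (log2 −0.78, and −0.95 without vehicle 4). Endothelial markers were lower in the IP for 12 of 12 genes (median −0.54), and for 11 of 12 without vehicle 4 (median −0.61). Vehicle 3 was kept in both readings, and the list was not read in the IP without it. For Itm2a the IP of vehicle 3 was the highest of the vehicle mice, at 217 CPM against 101 to 171 CPM. For Pltp it was not, at 48.0 CPM against 50.7 CPM in vehicle 4. The signs of the mitochondrial and ribosomal lists in the IP rested on vehicle 4. Mitochondrially encoded genes were higher in the IP for 15 of 15 with all libraries (median 0.22), and for 7 of 15 without vehicle 4 (median −0.0050). Mitochondrial genes took at least 6.23% of IP counts in every MS1262 mouse, against 6.45, 6.18, 6.26 and 4.22% in vehicle mice. Ribosomal protein genes were lower in the IP for 52 of 55 with all libraries (median −0.30), and for 23 of 55 without vehicle 4 (median 0.027). Rps14 had 137.8, 115, 103.3 and 123 CPM in the IP of MS1262 mice and 119, 103.1, 136 and 459 CPM in the IP of vehicle mice. Only vehicle 4 stood apart.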

How the data were processed

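Poly(A) RNA of mouse hippocampus was measured in 24 libraries made by SMART-seq without molecular identifiers, so that counts are not independent molecules. Per the labels' protocols, the input libraries were made from 10% of the RNA and the IP libraries from what the anti-m6A antibody pulled down out of the remainder. The authors deposited estimated counts per gene symbol, which, per the submitters' processing notes, involved Salmon 1.4.0, STAR 2.7.6a, Trimmomatic 0.32 and bcl2fastq 2.17.1.14 and the build GRCm38, also called mm10. Of the values other than 0, 22.1% were not whole, and estimated counts were rounded before testing. TPM values, also deposited by the authors, were used only in limma alternatives. The deposited peak lists were not used here. Of 55291 gene rows, 38990 matched a RefSeq symbol of GRCm38.p6, which gave positions and types. The counting strand is not given in the sources used here.

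The comparison of MS1262 with vehicle used R 4.3.3 and the 2-sided quasi-likelihood F test of edgeR 4.0.16. Counts were scaled by TMM, genes were kept by filterByExpr at a minimum count of 10, and p values were adjusted over all tested genes by Benjamini and Hochberg, with 0.05 as threshold. Dispersion was estimated over the 12 input libraries together (residual degrees of freedom 9, median coefficient of variation between animals 0.225, and 8 and 0.229 without vehicle 3). The IP libraries were fitted the same way. The IP lists without vehicle 4, and list sums without vehicle 3, were alternatives chosen after seeing the data. limma 3.58.1 and DESeq2 1.42.0 were alternatives, and the scripts were tested on simulated data. Means and single values are CPM on TMM-scaled library sizes, and an interval covers 95%. Mice are separate animals per the labels, no pair of libraries held identical values, and no batch is given.

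Named genes were Ehmt2, Ehmt1, App, Thy1, Mettl3, Mettl14, Fto, Alkbh5, Gfap, Trem2, Cst7 and Ttr. Added to them were called genes without overlap whose average log2 CPM reached 1, filled by smallest p to 10 in each direction (6 without vehicle 3), and up to 4 members of smallest p from each of 16 lists, passing over predicted genes and pseudogenes. Rps7-ps3, Rps7, Meg3, Xist, Wiz and other list members outside that rule were chosen after their values were seen. The 37 gene lists, the members and the tests were chosen with earlier results of these data known. Lists are described by counts and medians, with no test of a list. The result of 1 listed gene is not reported here.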

Additional observations from a re-analysis of the deposited data

Results flagged for a closer look

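In 198 groups of 4 values, each of the 99 named genes tested in MS1262 and in vehicle mice, 25 had an animal far from the other animals of its group by Dixon's ratio, where chance gives about 1 in 20. Vehicle 3 accounted for 10 of the 25, each with a high value. Most of these genes were named by their p with vehicle 3 included, so that its high values entered the choice. The 10 are therefore a description, and 1 in 20 is no measure for them. The choroid plexus genes were Ttr (7045 CPM), Enpp2 (13590), Kcnj13 (236.7), Cldn2 (41.32) and Otx2 (19.46), the genes of the thalamus and striatum list Tcf7l2 (154.4), Prkcd (115.8) and Synpo2 (26.05), and the reactive astrocyte gene Steap4 (4.002). Fam177a in vehicle 3 stood at 11.46 CPM where the other vehicle mice were at 0.

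Other vehicle mice stood out in single genes. Vehicle 4 was low in Ttc23 (3.237 CPM) and high in Gng13 (8.681) and Rps14 (615.4), vehicle 2 was high in the noncoding RNA Meg3 (457 CPM, against 169.6 to 206.9 in the other vehicle mice), and vehicle 1 was high in Ifitm3 (17.12).

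Among MS1262 mice, animal 3 was high in Enpp2 (931.2 CPM) and Ttr (158.8) and low in Ifit2 (20.71). Animal 4 was high in the globin genes Hbb-bs (21.68) and Hba-a1 (19.07). Animal 1 was low in F13a1 (2.33), Cck (32.21) and Ythdc1 (95.09), and animal 2 was high in Itm2a (151.6) and low in Akap5 (37.8).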

How the results depend on the processing

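The count of genes called with all libraries, 0, was 7 in DESeq2 (3 higher, 4 lower: Adh1, F13a1, Gm10233, Gm14440, Hsf3, Pcdha6 and Pgk1-rs7), ranged from 0 to 2 when a mouse was left out (without vehicle 2, F13a1 and Meg3, and without vehicle 3, Rps7-ps3), and was 0 with DESeq2 size factors, no low-count filter, only the MS1262 and vehicle libraries, or limma on either TPM scale. Without vehicle 3 the count of 1 was 6 in DESeq2 (Acp1, Gm10233, Gm14440, Gm3883, Pgk1-rs7 and Rps7-ps3), 2 with no low-count filter (Fam177a added) and 0 to 2 when a further mouse was left out (0 without vehicle 1, F13a1 added without vehicle 2, Zfp982 added without vehicle 4). The IP count of 0 was 4 in DESeq2 (Anxa1, C2, Gm13841 and Rpl27-ps3) and 0 to 1 when a mouse was left out (Prune2, Rhobtb3 or Rps7-ps3). Same-numbered MS1262 and vehicle mice correlated at −0.169, 0.0706, 0.101 and −0.12 in their deviations from the group means. Such values cannot show whether the numbers pair mice, and the labels do not say so. With the number as a replicate block edgeR called 0 genes with all libraries, 1 without vehicle 3 and 0 in the IP. The median of all genes, −0.0087, was 0.065 on log2(TPM + 1) and 0.096 on log2(TPM + 0.1), and list medians near 0 changed sign there. Of 1484 values of 99 named genes under alternatives, 1454 kept sign and side of the threshold, 5 passed it and 25 changed sign, none of those from or to a call. Gfap had a log2 fold change of 0.0148 with the block and of 0.164 and 0.167 on the TPM scales. On those scales (pseudocount 1, then 0.1) Ctsl was at 0.0122 and 0.0124, P2ry12 at 0.0153 and 0.0155 and Siglech at 0.0134 and 0.0182. Over the mice left out, log2 fold changes ranged from −0.27 to 0.309 for Gfap, −0.16 to 0.0432 for Mettl3, −0.095 to 0.767 for Cst7, −0.0598 to 0.483 for Trem2, −0.00491 to 0.496 for Thy1 and −0.0451 to 0.174 for Ehmt2. They ranged from −0.194 to 0.0237 for P2ry12, −0.356 to 0.0124 for Fth1, −0.283 to 0.0101 for Fto, −5.52 to 0.144 for Ttr, −1.63 to 0.31 for Prkcd and −2.37 to 1.70 for Steap4. The positive ends of Ttr, Prkcd and Steap4 and the negative ends of Cst7, Trem2 and Thy1 were those without vehicle 3. In the IP, leaving out vehicle 4 moved the mitochondrial median to −0.00498 and the ribosomal one to 0.0272. The cause of these changes was not tested. With 4 mice per group the 95% interval reached past a 1.5-fold difference for all but 64.6% of the genes with a mean log2 CPM of at least 1.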
